A study of Homo sapiens with 16 samples.

Results

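Collagens, laminins and integrins form the matrix outside cells and the receptors that hold cells to it, and all of their chains are made at the endoplasmic reticulum (ER). The genes described here were chosen by symbol: every protein-coding gene named COL with a chain number, LAMA, LAMB or LAMC with a number, or ITGA or ITGB with a number or letter. This gave 83 genes among the 58302 gene identifiers counted, of which 44 were collagen, 12 laminin and 27 integrin genes, the last including ITGBL1, a secreted protein that resembles integrin beta chains. No measured value entered the choice.

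The cells were HEK293, an established line derived from human embryonic kidney. Gemin5, an RNA-binding protein of the SMN complex that also acts in translation, was silenced with a small interfering RNA (siRNAG5) given at 100 nM, and cells without it are called Ctrl. The labels describe the Ctrl cells as untreated while the study's methods describe a control siRNA, so their treatment is known only as lacking the Gemin5 siRNA. RNA was taken from cytoplasmic lysates (Input) and from the pooled polysome fractions of sucrose gradients (Polysome), which gave 16 libraries, 4 in each of Input Ctrl, Input siRNAG5, Polysome Ctrl and Polysome siRNAG5. All groups share the same parental line, and the study describes the 4 samples of each condition as independent.

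Proteins bound for secretion or for the plasma membrane carry a signal sequence that is recognised as it leaves the ribosome, and the signal recognition particle then brings ribosome and mRNA to the Sec61 channel of the ER membrane. Collagen chains are hydroxylated and glycosylated in the ER and wind around each other as trimers. Fibrillar collagens build fibres, type IV collagen builds the mesh of basement membranes, and type VI collagen forms beaded filaments. Laminins are cross-shaped trimers of an alpha, a beta and a gamma chain and make up the other mesh of basement membranes, and integrins are pairs of an alpha and a beta chain that bind these proteins outside the cell and the cytoskeleton within it.

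Each library held 11145324 to 24511299 reads on genes, and reads with more than 1 alignment made up 4.88 to 6.04% of an Input library and 21.2 to 42.4% of a Polysome library. GEMIN5 itself stood at 15.9 to 20.6 CPM (read counts scaled to a common library total) in the Input Ctrl libraries and at 6.22 to 7.45 CPM in Input siRNAG5. In Polysome it stood at 5.49 to 9.28 CPM in Ctrl and at 2.10 to 3.08 CPM in siRNAG5, so each siRNAG5 library lay below each Ctrl library of its fraction. None of the 7 genes used to check the HEK293 label was at 0 in any group. Reads of 12 hepatocyte markers, which HEK293 cells should lack, differed between libraries. They numbered 18 and 11 in Input Ctrl 1 and 2, 1564 and 1278 in Input Ctrl 3 and 4, 11 to 17 in Input siRNAG5, 1332 to 1861 in Polysome Ctrl and 4 to 11 in Polysome siRNAG5. At their highest these markers summed to 155 CPM, and ALB, which encodes albumin, led them with 2000 reads over the Polysome Ctrl libraries against 3 over Polysome siRNAG5. The 9 fibroblast markers, from a cell type rich in collagen, summed to between 7 and 23 reads in any library (13 to 23 in Polysome Ctrl, 8 to 16 in Polysome siRNAG5), with FAP at 0 in all libraries, and the 11 blood cell markers to 75 to 148 reads in Polysome Ctrl and 12 to 41 in the other groups. The 6 endothelial markers gave 0 to 16 reads per library, and the 7 brain markers, some of which HEK293 cells transcribe, 116 to 302. Earlier results of these counts had set Polysome Ctrl 1, siRNAG5 1 and siRNAG5 4 apart from the other Polysome libraries, so values without them, and values without Input Ctrl 3 and 4, are given where a count rests on them.

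The promoters of 59 of the 83 genes were matched in RefSeq (GRCh38.p14), as windows of 250 bases before and 50 after the start of transcription. A GC box (GGGCGG on either strand) was present in 33 of them (55.9%) and in 44.6% of all 27305 promoters. A CCAAT box (CCAAT) was present in 14 (23.7%, against 35.7% of all), a TATA box (TATAAA) in 6 (10.2%, against 12.0%) and an E-box (CACGTG) in 1 (1.69%, against 7.43%). These letters were searched on both strands with overlaps allowed, and a match says only that the letters stand in the window. The sequences below lie just upstream of genes on which the results turn. They are LAMB2 and LAMB1, whose mRNAs rose with the smallest adjusted p in Input, COL6A2, one of the most abundant collagen mRNAs, and the gene pair COL4A1 and COL4A2, whose RefSeq start sites lie close together on opposite strands of chromosome 13 (110307157 for COL4A1 and 110307284 for COL4A2). Capitals mark the GC, CCAAT and TATA boxes on either strand, and each sequence is written 5′ to 3′ on the strand named and stops short of every annotated exon of its gene. The genes themselves span chr13:110148963-110307157 (COL4A1), chr13:110305812-110513209 (COL4A2), chr7:107923799-108003213 (LAMB1), chr3:49121114-49133118 (LAMB2) and chr21:46098112-46132848 (COL6A2) in GRCh38. The GENCODE span of COL4A2 begins inside COL4A1 because of another transcript, so the stretch printed between the RefSeq start sites lies within that span, outside its exons.
COL4A1-COL4A2 start sites (chr13:110307158-110307257, plus strand): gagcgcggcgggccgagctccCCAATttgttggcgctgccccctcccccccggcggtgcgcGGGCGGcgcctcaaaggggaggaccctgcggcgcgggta
LAMB1 (chr7:108003214-108003333, minus strand): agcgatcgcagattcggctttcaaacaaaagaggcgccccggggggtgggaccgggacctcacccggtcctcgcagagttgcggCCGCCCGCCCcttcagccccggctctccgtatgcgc
LAMB2 (chr3:49133119-49133238, minus strand): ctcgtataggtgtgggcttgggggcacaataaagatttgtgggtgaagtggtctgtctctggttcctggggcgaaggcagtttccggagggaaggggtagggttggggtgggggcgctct
COL6A2 (chr21:46097992-46098111, plus strand): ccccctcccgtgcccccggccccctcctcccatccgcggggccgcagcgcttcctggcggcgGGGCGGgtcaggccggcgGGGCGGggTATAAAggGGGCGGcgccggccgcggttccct
The stretch between the start sites of the type IV genes held 1 CCAAT box and 1 GC box in 100 bases with a GC content of 78.0%, the COL6A2 stretch held 3 GC boxes and 1 TATA box at 82.5% GC, and the 120 bases before LAMB2 held none of the 4 motifs at 59.2% GC.

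Most of these genes had low mRNA levels in HEK293 cells. Of the 83, 42 passed the filter on low counts in Input, 42 in Polysome and 40 in both, and 39 passed in neither, with at most 22 reads in any library and 111 over all 16. COL10A1, COL11A1 and LAMB4 had 0 reads in every library, which for each allows up to 3 reads. Passing the filter depends on the counts themselves, so the genes that passed are not a sample of all 83.

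Levels are compared between genes only as CPM per kilobase of exon (CPM per kb, mean ± SD, n = 4 libraries). In Input Ctrl the highest collagens were COL6A2 at 2.85 ± 0.398 and COL6A1 at 2.84 ± 0.465, the alpha chains of type VI collagen, followed by COL9A3, a chain of the fibril-associated type IX collagen, at 2.67 ± 0.286. These lay within each other's spread. Among laminins LAMC1, the gamma chain of most laminins, stood highest at 3.18 ± 0.138 CPM per kb, above LAMA4 at 1.26 ± 0.0568 and LAMB2 at 1.03 ± 0.21. The integrin with the highest value was ITGAE at 17.5 ± 1.68 CPM per kb, followed by ITGB5, a partner of the alpha V chain, at 2.26 ± 0.396 and ITGB1, the beta chain shared by most matrix-binding integrins, at 1.37 ± 0.131. ITGAE is known as the alpha chain of an integrin of lymphocytes, and its exons overlap those of HASPIN on the other strand. The strand setting of the counting is not given in the sources used here, so reads of ITGAE and HASPIN cannot be told apart. Antisense exons overlapped 31 of the 83 genes in this way, and 10 overlapped another gene on their own strand. Among the genes described below, LAMB1 overlaps DLD, LAMA5 overlaps ADRM1, COL9A3 overlaps TCFL5 and COL18A1 overlaps SLC19A1, and their values carry the same uncertainty.

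The mRNAs of the chains of a trimer did not stand at like levels. COL1A1 stood at 0.429 CPM per kb in Input Ctrl while COL1A2, its partner in type I collagen, had 10 reads over the 4 Input Ctrl libraries, 18 over Polysome Ctrl and 0 over the siRNAG5 libraries of either fraction. For type VI collagen, COL6A3 had 3 reads over Input Ctrl and 3 over Input siRNAG5. These were 0.0032 and 0.0023 CPM per kb, against 2.84 and 4.70 for COL6A1. For type IX collagen, COL9A1 had 5 reads and 1 read in the same groups. These were 0.011 and 0.0012 CPM per kb, against 2.67 and 4.325 for COL9A3. Among the chains of type IV collagen, COL4A3 had 3 reads and COL4A4 7 reads over Input Ctrl, whereas COL4A1, COL4A2, COL4A5 and COL4A6 passed the filter. The bar chart of chains shows these levels side by side.

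**Figure D1:**
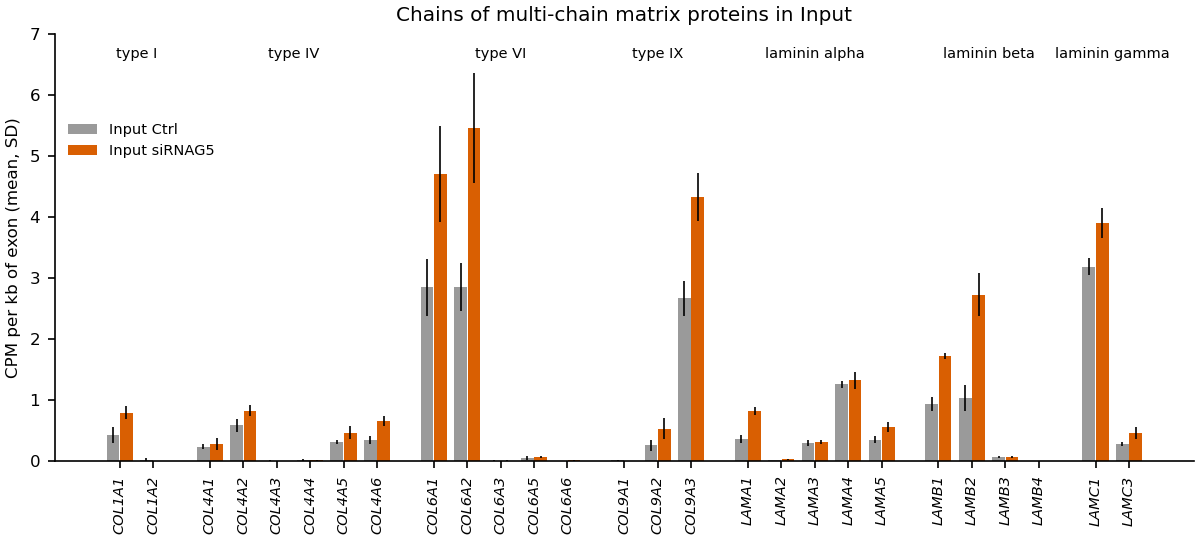
Level in Input of the chains of multi-chain collagens and of laminins, as CPM per kb of exon on the vertical axis, with bars for the mean of 4 Ctrl (grey) or 4 siRNAG5 (orange) libraries and lines for the SD. COL1A2, COL6A3, COL9A1 and COL4A3 stood near 0 beside partner chains, and COL6A2 went from 2.85 in Ctrl to 5.45 CPM per kb in siRNAG5.

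The first comparison asked how the cytoplasmic level of each mRNA differed between siRNAG5 and Ctrl cells. In Input, 21 of the 42 genes tested rose after Gemin5 silencing and none fell, at an adjusted p under 0.05 (edgeR quasi-likelihood test, Benjamini-Hochberg over all 14134 genes tested) and a log2 fold change (FC) beyond 0.5. Over all genes tested, 10.5% rose and 6.02% fell by the same rule, and the median log2 FC was 0.58 for these 42 genes and 0.04 for all. The count was 12 of 19 collagens, 5 of 9 laminins and 4 of 14 integrins. DESeq2 called 19 higher (8.70% of all genes) and none lower, and at an unadjusted p under 0.05 with the fold cutoff 24 were higher (11.9% of all genes) and none lower. Of the 21, 9 have antisense exons over their own, and the part of those reads was not tested. Without the fold cutoff 25 rose (59.5%, against 17.9% of all genes). The only gene that then fell was ITGAE (2.38%, against 19.1% of all genes), at a log2 FC of -0.44 ± 0.07 (SE, adjusted p = 1.7e-05). ITGAE stood at 104 to 130 CPM in Ctrl and at 82.0 to 88.9 CPM in siRNAG5.

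Laminin chains included the best supported increases. LAMB2, the beta 2 chain of basement membranes of muscle, nerve and kidney, stood at 5.96, 6.28, 9.15 and 6.82 CPM in the 4 Input Ctrl libraries and at 22.3, 17.3, 18.2 and 17.0 CPM in Input siRNAG5. The groups lay far apart, with a log2 FC of 1.41 ± 0.13 (adjusted p = 1.4e-09), or 2.67-fold. LAMA1, the alpha 1 chain of embryonic basement membranes, stood at 7.16, 6.06, 4.89 and 5.02 CPM in Ctrl and at 13.8, 14.1, 12.0 and 12.0 CPM in siRNAG5 (log2 FC 1.18 ± 0.13, adjusted p = 4.0e-08). LAMB1, the widespread beta 1 chain, stood at 15.2 to 20.3 CPM in Ctrl and at 30.8 to 32.9 CPM in siRNAG5 (log2 FC 0.91 ± 0.09). LAMC3 and LAMA5 also rose, by 0.78 ± 0.20 and 0.70 ± 0.15 on the log2 scale. LAMC1 and LAMA4, the most abundant laminins in Input Ctrl, were not called, with log2 FC of 0.30 ± 0.09 and 0.08 ± 0.10.

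Collagens of several classes rose. COL23A1, a collagen that spans the plasma membrane, had the largest log2 FC of all at 1.80 ± 0.42 (adjusted p = 0.0012), on low levels of 0.497, 0.598, 0.711 and 0 CPM in Ctrl and 2.26, 2.21, 1.24 and 0.946 CPM in siRNAG5. COL13A1, another membrane-spanning collagen, stood at 2.48, 1.94, 1.16 and 2.37 CPM in Ctrl and at 3.99, 4.09, 3.38 and 4.78 CPM in siRNAG5 (log2 FC 1.05 ± 0.21). Neither pair of groups overlapped. Of type VI collagen, COL6A2 stood at 13.0, 14.5, 15.2 and 18.1 CPM in Ctrl and at 35.1, 30.6, 24.2 and 26.4 CPM in siRNAG5 (log2 FC 0.94 ± 0.11, adjusted p = 1.6e-07), and its neighbour and partner COL6A1 rose by 0.73 ± 0.12. COL9A2 of type IX collagen stood at 0.696, 1.05, 1.60 and 0.947 CPM in Ctrl and at 3.26, 1.68, 2.09 and 1.89 CPM in siRNAG5 (log2 FC 1.04 ± 0.28, adjusted p = 0.0044), so that the highest Ctrl library came close to the lowest siRNAG5 library. COL9A3 rose by 0.71 ± 0.11.

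Of the basement membrane collagens, COL4A6 stood at 3.18, 2.69, 4.09 and 2.84 CPM in Ctrl and at 6.39, 6.84, 5.22 and 5.78 CPM in siRNAG5 (log2 FC 0.93 ± 0.17, adjusted p = 5.8e-05). COL4A5, its neighbour on the X chromosome, rose by 0.63 ± 0.18. COL4A2 passed the fold cutoff only just, at 0.50 ± 0.12, whereas COL4A1, which it joins in the commonest type IV trimer and from which it is read in the other direction, was not called at 0.27 ± 0.21 (adjusted p = 0.33). The difference between these genes was not tested. The fibrillar collagens COL1A1 and COL2A1 rose by 0.88 ± 0.17 and 0.77 ± 0.15, and COL14A1, which binds the surface of fibrils, by 0.61 ± 0.21.

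Among integrins, ITGA7, the alpha chain of a laminin receptor of muscle, stood at 1.79, 0.972, 1.51 and 1.51 CPM in Ctrl and at 3.46, 2.75, 2.88 and 2.36 CPM in siRNAG5 (log2 FC 1.01 ± 0.23, adjusted p = 0.00092), without overlap. Its exons overlap BLOC1S1 and METTL7B on the other strand. ITGAV, which binds vitronectin and other proteins with an RGD sequence, rose by 0.82 ± 0.26, ITGA2B, known as the fibrinogen receptor chain of platelets, by 0.75 ± 0.20, and ITGA5, the fibronectin receptor chain, by 0.52 ± 0.12. No integrin beta chain was called. ITGB1 and ITGB5 had log2 FC of 0.14 ± 0.11 and 0.30 ± 0.11.

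In 21 of the 42 genes all 4 siRNAG5 libraries lay above all 4 Ctrl libraries, and in 1, ITGAE, all lay below, where 15.1% of all genes tested lay above and 19.1% below. Summed over the 12 laminin genes, Input Ctrl held 84.8 ± 1.22 CPM and Input siRNAG5 131 ± 2.93 CPM (n = 4). The 44 collagens summed to 105 ± 12.4 and 167 ± 14.2 CPM and the 27 integrins, of which ITGAE made up most, to 181 ± 8.69 and 166 ± 4.64 CPM. In a bulk sample more RNA per cell and more cells that transcribe a gene cannot be told apart. Of the 21 calls, 17 held when any library was left out. COL4A2 was lost without Input Ctrl 1 or 2 or siRNAG5 1, 2 or 4, COL14A1 without Input Ctrl 1, 2 or 4 or siRNAG5 1 or 4, ITGA5 without Input Ctrl 2 or siRNAG5 4, and ITGAV without Input Ctrl 1. With Input Ctrl 3 and 4, which carried the hepatocyte reads, both left out, 25 of 44 genes rose (56.8%, against 9.97% of all genes). ITGAE fell in that fit (2.27%, against 6.64% of all genes).

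**Figure D2:**
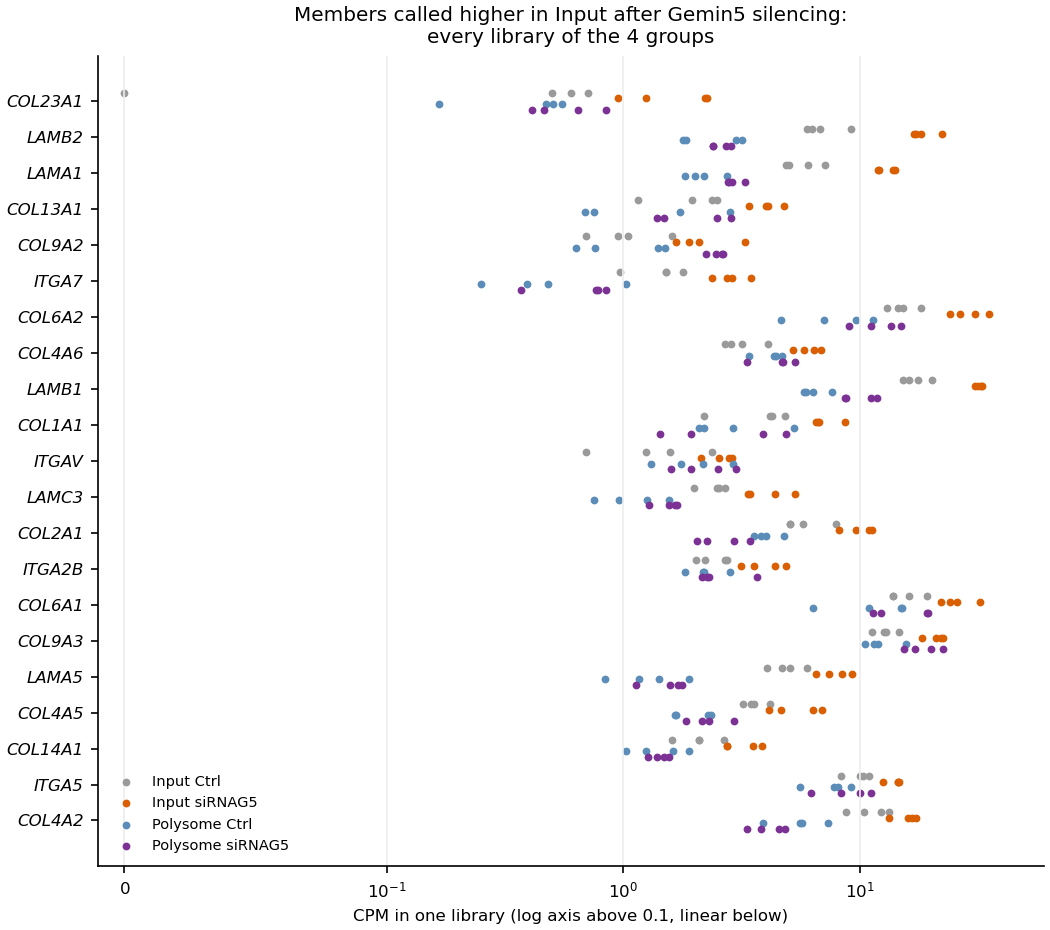
Values in all 16 libraries, as CPM (log axis above 0.1, linear below), of the 21 genes that rose in Input, each point a library and each colour a group. The Input siRNAG5 points lay to the right of the Input Ctrl points for most genes, while the points of the Polysome groups mostly overlapped.

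The genes tested have long mRNAs with a high GC content, with a median transcript of 5905 bases and 54.9% GC in Input against 2891 bases and 48.5% over all genes tested. The log2 FC in Input varied with transcript length over all genes (Spearman rho 0.167 across 14088 genes) and in the opposite direction over the 42 genes (rho -0.354), as a description in which all points share the same libraries. With offsets for length and GC content 12 of the 21 calls remained, among them LAMB2, LAMA1, LAMB1, COL6A2, COL4A6, COL23A1, COL13A1, COL9A2 and ITGA7. These 12 made up 28.6% of the 42 genes, where 7.84% of all genes were called higher. ITGAE was then called lower (2.38%, against 7.78% of all genes). The medians became 0.36 for the 42 genes and -0.02 for all. Lost were COL2A1, COL4A2, COL4A5, COL6A1, COL9A3, COL14A1, LAMA5, LAMC3 and ITGA5.

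The second comparison asked the same of the mRNA in polysomes. In Polysome 3 of 42 genes tested rose (7.14%) and none fell, where 3.95% of the 14420 genes tested rose and 4.00% fell, and the median log2 FC was 0.23 for these genes and 0.03 for all. At an unadjusted p under 0.05, with the fold cutoff, 7 were higher (16.7%) and 3 lower (7.14%), where 11.1% and 9.31% of all genes were. DESeq2 called 4 higher (9.52%) and 1 lower (2.38%), where it called 5.83% and 7.64% of all genes.

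Both tested chains of type IX collagen rose in Polysome as they did in Input. COL9A2 stood at 1.50, 0.755, 1.39 and 0.629 CPM in Polysome Ctrl and at 2.46, 2.23, 2.63 and 2.62 CPM in Polysome siRNAG5 (log2 FC 1.24 ± 0.29, adjusted p = 0.027), with no overlap. COL9A3 stood at 15.7, 10.6, 11.9 and 11.5 CPM and at 17.1, 19.9, 15.4 and 22.5 CPM (0.63 ± 0.18, adjusted p = 0.0497), where the highest Ctrl library passed the lowest siRNAG5 library. LAMB1 stood at 5.91, 6.31, 5.80 and 7.62 CPM and at 11.1, 11.8, 8.77 and 8.66 CPM (0.70 ± 0.17, adjusted p = 0.033), again with no overlap. None of these calls held in every fit that left out a library: COL9A2 held in 4 of 8 fits, and LAMB1 and COL9A3 in 1 of 8 each, while their log2 FC stayed between 1.06 and 1.43, 0.63 and 0.78, and 0.54 and 0.78. Over all genes the counts fell as low as 113 lower and 76 higher, without Polysome Ctrl 2. COL9A2 was lost without Polysome Ctrl 2 or 4 or siRNAG5 1 or 3, LAMB1 was kept only without siRNAG5 4, and COL9A3 only without Ctrl 1.

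Several genes came near the threshold. COL4A1 stood at 1.95 to 2.99 CPM in Polysome Ctrl and at 0.921 to 1.50 CPM in Polysome siRNAG5 (log2 FC -0.85 ± 0.25, adjusted p = 0.059). ITGA6, a laminin receptor chain, stood at 1.44 to 1.89 and 2.30 to 3.33 CPM (0.76 ± 0.22, adjusted p = 0.057). The siRNAG5 group lay wholly below the Ctrl group for 3 genes, COL4A1, COL2A1 and COL5A1, and wholly above it for 4, COL9A2, LAMB1, LAMA1 and ITGA6, where 10.0% of all genes tested lay below and 8.29% above. With Polysome Ctrl 1, siRNAG5 1 and siRNAG5 4 left out together, 7 of 44 genes rose (COL6A1, COL6A2, COL9A2, COL9A3, ITGA6, ITGB1 and LAMB1) and 2 fell (COL3A1 and ITGAE). That fit set only Polysome Ctrl 2, 3 and 4 against siRNAG5 2 and 3. The libraries left out were chosen from these same counts. Calls over all genes grew as well, to 9.02% higher and 12.1% lower, against 15.9% and 4.55% of the 44. COL3A1, a fibrillar collagen of connective tissue, did not pass the filter with all 8 libraries, at 35 reads over Polysome Ctrl and 9 over Polysome siRNAG5, and it also fell in the fits without siRNAG5 2 or siRNAG5 4. COL1A2 and COL6A3, with 18 and 9 reads over Polysome Ctrl and 0 over Polysome siRNAG5, fell together with COL3A1 when no filter on low counts was used. These differences ran in the direction of the summed hepatocyte, blood cell and fibroblast marker reads, and the part of those cells in them was not tested. Scaled for depth, the fibroblast markers summed to 1.081 to 1.415 CPM in Polysome Ctrl and to 0.409 to 0.618 CPM in Polysome siRNAG5, without overlap. In unscaled reads over Polysome Ctrl and Polysome siRNAG5, DCN (25 and 0), DPT (4 and 0) and PDGFRB (7 and 6) were lower. LUM (13 and 18), PDGFRA (14 and 16) and POSTN (5 and 7) had more unscaled reads in Polysome siRNAG5, which does not show a higher scaled level.

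Most of these genes had a lower log2 FC in Polysome than in Input. Of the 40 genes tested in both fractions, 33 (82.5%) had a lower log2 FC in Polysome than in Input, against 55.0% of the 13708 genes tested in both. Of the 20 genes that rose in Input and were tested in Polysome, 3 (15.0%) rose there too, against 339 of 1437 genes (23.6%). Their medians were 0.80 in Input and 0.28 in Polysome, where the medians of the 1437 genes were 0.76 and 0.55. The hepatocyte marker reads were present in every Polysome Ctrl library (1332 to 1861) but in Input only in Ctrl 3 and 4 (1564 and 1278). They were nearly absent from siRNAG5 in both fractions, and their part in the lower log2 FC in Polysome was not tested. The plot of both changes per gene shows that 2 of the 20, COL2A1 and COL4A2, had a log2 FC below 0 in Polysome.

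**Figure D3:**
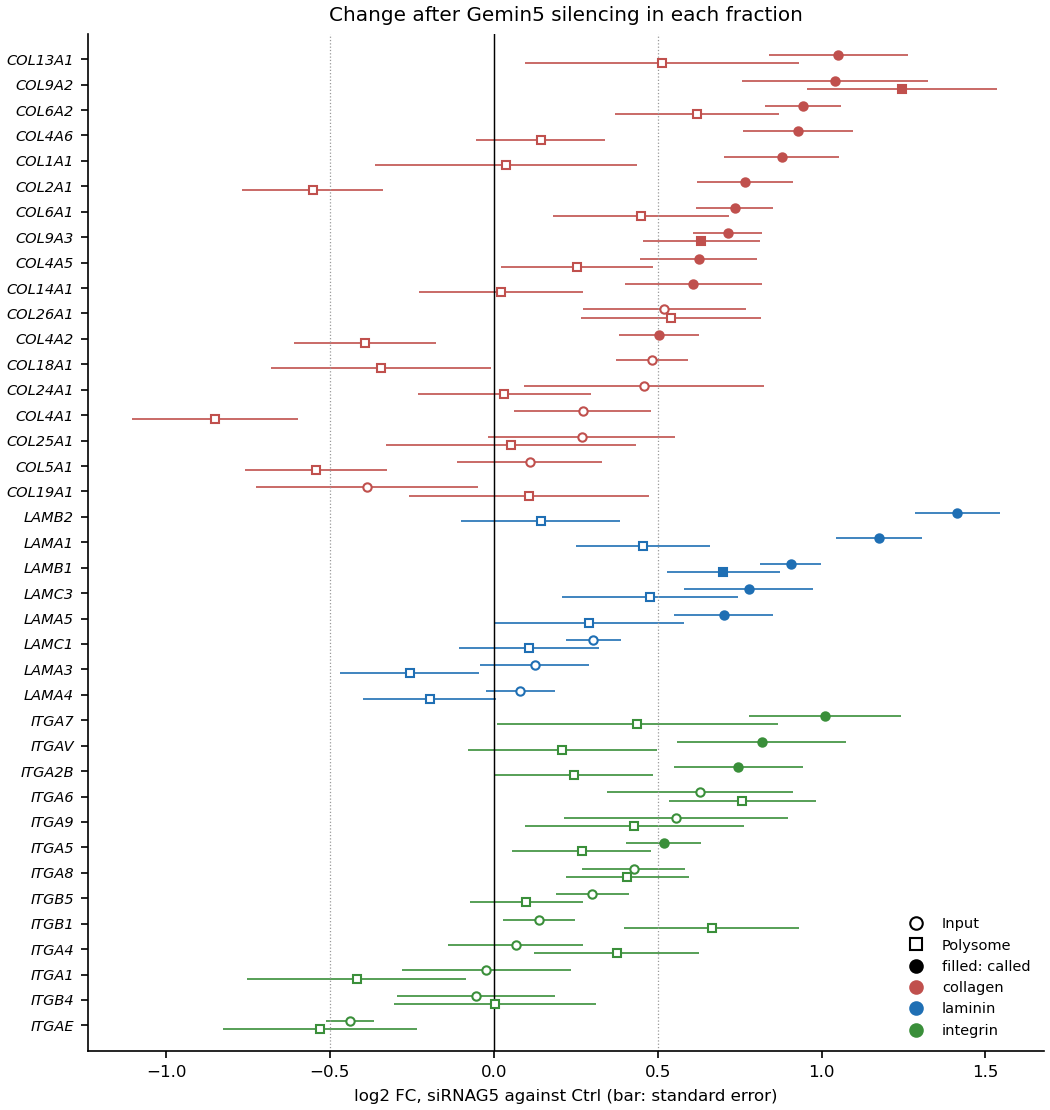
The log2 FC of siRNAG5 against Ctrl in Input (circles) and Polysome (squares) for 39 of the 40 genes tested in both, grouped as collagens, laminins and integrins, with bars for the SE, filled symbols for calls and dotted lines at the fold cutoff of 0.5. In 32 of the 39 genes drawn the square lay to the left of the circle.

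The difference itself (log2 FC in Polysome less that in Input) came from a fit of all 16 libraries, in which 44 of the genes were tested. None was called in either direction, and neither was any of the 14958 genes tested (0.00% lower, 0.00% higher). At an unadjusted p under 0.05, with no fold cutoff, 9 of the 44 were lower and none higher, against 701 lower and 388 higher over all 14958 genes. The fold cutoff left the same 9 lower (20.5%, against 3.46% of all genes) and none higher (against 1.82%). DESeq2 called 2 of the 44 lower, COL2A1 and LAMB2 (4.55%, against 0.0735% of all genes). The medians were -0.35 for the 44 genes and -0.06 for all. The 9 genes were COL2A1, COL4A1, COL4A2, COL4A6, COL5A1, COL5A2, COL18A1, LAMA1 and LAMB2. The part of the RNA that brought hepatocyte reads into the Polysome Ctrl libraries was not tested here either.

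The smallest p belonged to COL2A1, the collagen of cartilage. Its level was 5.07, 5.08, 7.91 and 5.78 CPM in Input Ctrl, 10.9, 8.18, 11.3 and 9.67 CPM in Input siRNAG5, 3.83, 3.57, 4.01 and 4.79 CPM in Polysome Ctrl and 2.05, 2.27, 3.42 and 2.95 CPM in Polysome siRNAG5. It was thus higher in each siRNAG5 library in Input and lower in each in Polysome, and the difference of the changes was -1.34 ± 0.27 (unadjusted p = 7.6e-05, adjusted p = 0.23). LAMB2, whose Input level rose so clearly, stood at 3.16, 1.78, 1.84 and 2.99 CPM in Polysome Ctrl and at 2.40, 2.85, 2.39 and 2.72 CPM in Polysome siRNAG5. These values overlapped, and the difference of the changes was -1.29 ± 0.27 (adjusted p = 0.23). COL5A2, a minor fibrillar collagen, had a difference of -2.09 ± 0.57 (adjusted p = 0.41) on levels of 0.0888 to 0.473 CPM in Input Ctrl, 0.647 to 0.998 in Input siRNAG5, 0.499 to 1.18 in Polysome Ctrl and 0.507 to 0.865 in Polysome siRNAG5. With Polysome Ctrl 1, siRNAG5 1 and siRNAG5 4 left out, COL2A1 and LAMB2 were called lower (4.35%) and ITGB1 higher (2.17%), where 4.30% and 0.691% of all genes were.

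Polysome was then set against Input within each treatment, which asks how the share of an mRNA found in polysomes compared with that of other mRNAs. These comparisons use the same libraries as those above. In Ctrl 13 of 39 genes tested (33.3%) were lower in Polysome and none higher, where 18.8% of the 13666 genes tested were lower and 20.8% higher, with medians of -0.37 and -0.03. DESeq2 called 12 lower (30.8%) and none higher, where it called 17.7% and 20.8% of all genes. The unadjusted p with the fold cutoff gave 13 lower (33.3%) and none higher, against 19.9% and 21.9% of all genes. In siRNAG5 21 of 44 (47.7%) were lower and 1, COL27A1, higher, where 21.2% of 14795 genes were lower and 23.9% higher, with medians of -0.55 and -0.04. The Ctrl and siRNAG5 libraries are separate, and the test of their difference is the one given above. A log2 ratio here is relative to the mean of the mRNAs in each library and is no amount of mRNA per polysome.

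Laminins stood lowest. Of the 8 tested in Ctrl 6 were lower in Polysome, with a median log2 ratio of -1.22, and of the 9 tested in siRNAG5 8 were lower, with a median of -1.32. The largest in Ctrl was LAMA5, a chain of mature basement membranes, which stood at 4.04 to 5.96 CPM in Input and at 0.836 to 1.89 CPM in Polysome (log2 ratio -1.90 ± 0.25, adjusted p = 2.0e-05). LAMB2, LAMB1 and LAMA1 followed with -1.54 ± 0.23, -1.42 ± 0.15 and -1.38 ± 0.21. In siRNAG5 the ratios of these genes were -2.26 ± 0.20 for LAMA5, -2.76 ± 0.15 for LAMB2, -1.58 ± 0.13 for LAMB1 and -2.06 ± 0.14 for LAMA1. LAMC1 and LAMC3 were also called in both treatments, and LAMA3 and LAMA4 in siRNAG5 alone. For LAMB2 the range was 17.0 to 22.3 CPM in Input siRNAG5 and 2.39 to 2.85 CPM in Polysome siRNAG5, a 6.78-fold lower level.

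Collagens were mixed. In Ctrl 6 of 18 were lower, namely the type IV chains COL4A1, COL4A2 and COL4A5, together with COL2A1, COL6A2 and COL18A1, whose C-terminal fragment is endostatin. Their log2 ratios ran from -0.55 to -0.99. In siRNAG5 11 of 21 were lower, these 6 and COL1A1, COL6A1, COL13A1, COL14A1 and COL23A1. COL9A2 and COL9A3 lay near 0 in both treatments (0.01 ± 0.36 and -0.04 ± 0.15 in Ctrl, 0.25 ± 0.22 and -0.08 ± 0.14 in siRNAG5), and COL4A6 was at 0.41 ± 0.20 in Ctrl and -0.33 ± 0.18 in siRNAG5 without a call. COL27A1, a fibrillar collagen, was higher at 0.88 ± 0.31 (adjusted p = 0.032), a call that held in 4 of the 8 fits without a library. It was lost without Input siRNAG5 1, 2 or 4 or Polysome siRNAG5 3.

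Few integrins were called. In Ctrl only ITGA7 of 13 was called, at -1.41 ± 0.39 (adjusted p = 0.0069), with Polysome values of 0.249, 0.480, 0.390 and 1.02 CPM that overlapped the Input values. In siRNAG5 ITGA7 and ITGA5 of 14 were called, at -1.94 ± 0.27 and -0.56 ± 0.18. The beta chains ITGB1 and ITGB5 had ratios of -0.21 ± 0.17 and -0.10 ± 0.15 in Ctrl and of 0.36 ± 0.24 and -0.26 ± 0.15 in siRNAG5.

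**Figure D4:**
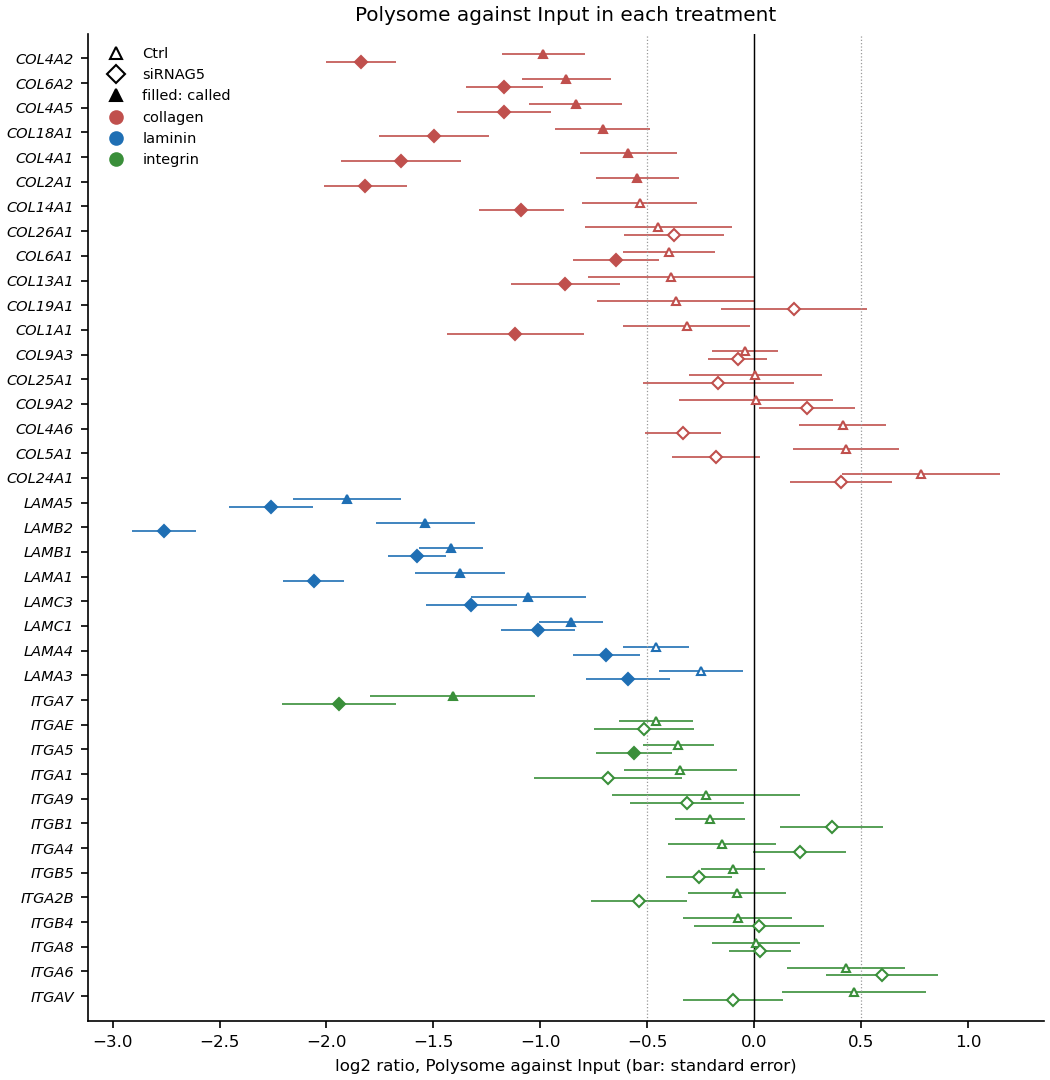
The log2 ratio of Polysome to Input in Ctrl (triangles) and siRNAG5 (diamonds) for each gene tested in both treatments, with bars for the SE, filled symbols for calls and dotted lines at 0.5 on either side of 0. Every laminin drawn lay left of 0 in both treatments, LAMB2 farthest in siRNAG5 at -2.76.

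In Ctrl 10 of the 13 calls held in all fits that left out a library, and COL18A1 (lost without Polysome Ctrl 2), COL2A1 (without Input Ctrl 3 or 4 or Polysome Ctrl 2 or 3) and COL4A1 (without Input Ctrl 1 or 4 or Polysome Ctrl 1, 2 or 3) did not. With Input Ctrl 3 and 4 both left out 8 of 43 genes tested remained lower, 6 laminins, COL4A2 and COL6A2. That was 18.6%, near the 14.7% of all genes that were lower in that fit. COL3A1 and COL5A2 were then higher (4.65%, against 15.5% of all genes). In siRNAG5 18 of 22 calls held. LAMA3 was lost without Input siRNAG5 1 or 4 or Polysome siRNAG5 1 or 2, COL6A1 without Input siRNAG5 1 or Polysome siRNAG5 4, and ITGA5 without Polysome siRNAG5 1 or 4.

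Long transcripts were in general higher in Polysome than in Input. Over all genes the ratio varied with transcript length with a Spearman rho of 0.412 in Ctrl (13628 genes) and 0.440 in siRNAG5 (14738 genes), whereas over the genes described here rho was -0.026 (n = 39) and -0.023 (n = 44). These are descriptions across genes that share their libraries. With offsets for length and GC content, 22 of 39 genes were lower in Ctrl and 27 of 44 in siRNAG5, none was higher, and the medians were -0.64 and -0.75 against 0.02 and 0.03 over all genes. All-gene shares lower were then 18.6% and 21.7%. The calls with offsets took in 5 of 13 integrins in Ctrl (ITGA1, ITGA4, ITGA5, ITGA7 and ITGAE) and 7 of 14 in siRNAG5 (ITGA1, ITGA2B, ITGA5, ITGA7, ITGA9, ITGAV and ITGB5), more than without them.

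**Figure D5:**
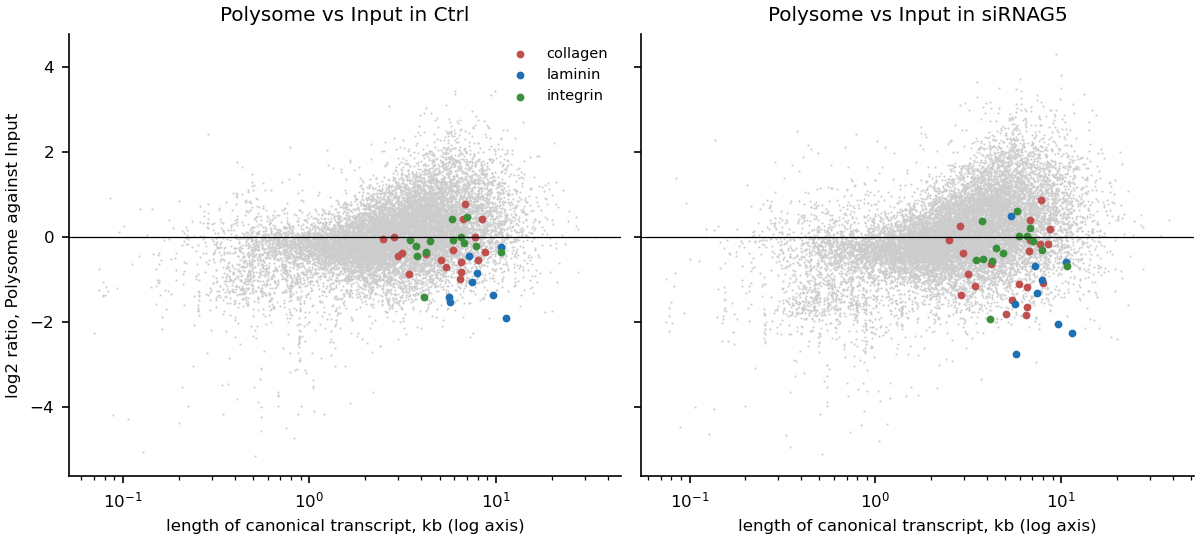
The log2 ratio of Polysome to Input against the length of the canonical transcript in kb (log axis) for all genes tested (grey) and for collagens, laminins and integrins (coloured), in Ctrl on the left and siRNAG5 on the right. Grey points rose with length, with a Spearman rho of 0.412 and 0.440, while most laminins lay below them at lengths of over 5 kb.

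Genes that act on these proteins were read from 4 lists, to be set against the shares of all genes that rose or fell (10.5% and 6.02% in Input, 3.95% and 4.00% in Polysome). Of the other matrix proteins, 11 of 20 tested (55.0%) rose in Input and none fell, the largest being TNC, the adhesion-modulating tenascin C (log2 FC 2.28, on 0.241 CPM in Ctrl and 1.21 in siRNAG5), AGRN, the proteoglycan agrin (1.38), and NID2, a nidogen that links laminin to type IV collagen (1.13). In Polysome 2 of 20 rose (10.0%), THBS3 (1.15) and BCAM, a receptor of laminin alpha 5 (0.63), and 3 fell (15.0%). Those that fell were THBS1, at 1.26 CPM in Polysome Ctrl and 0.0115 in siRNAG5, VTN, the plasma protein vitronectin made in the liver, at 0.944 and 0.0660 CPM, and FN1, fibronectin, at 12.6 and 4.58 CPM. In Input their mean levels were 0.783 and 0.0457, 0.409 and 0.143, and 10.0 and 11.4 CPM, and THBS1 and VTN were too low to be tested there. The hepatocyte marker reads were likewise present in Polysome Ctrl (1332 to 1861) and nearly absent from Polysome siRNAG5 (4 to 11), and their part in these differences was not tested.

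Of 27 tested collagen processing genes, 8 rose (29.6%) and 1 fell (3.70%) in Input. The largest were the lysyl oxidases LOXL4 (1.33) and LOXL2 (1.20), which cross-link collagen, and ADAMTS2, which removes the N-terminal propeptide (0.94), and the gene that fell was PPIB, an ER prolyl isomerase of collagen folding (-0.62, from 1185 ± 65.2 to 766 ± 34.1 CPM). In Polysome 2 of 28 rose, ADAMTS2 (0.99) and LOXL1 (0.73), and 2 fell, PPIB (-0.91) and P3H3 (-0.60), or 7.14% each way. Of the integrin adaptors, which tie integrins to actin, 3 of 21 rose in Input, LIMS2 (1.10), vinculin VCL (0.59) and talin TLN1 (0.54), and ITGB1BP1 fell (-0.57). These shares, 14.3% and 4.76%, were near those of all genes. None of 24 was called in Polysome, where at an unadjusted p under 0.05 with no fold cutoff VCL, LIMS2 and PTK2 were higher and ITGB1BP1 lower. DESeq2 called LIMS2 higher there and none lower.

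The last list holds genes of targeting to the ER and of translocation, together with genes that act on the chains there, such as the signal peptidase. Of 32 ER targeting and translocation genes, none rose and 3 fell in Input, SEC11C of the signal peptidase (-0.68), SEC61B of the Sec61 channel (-0.59) and TRAM1 (-0.58), with a median of -0.25 over the list against 0.04 over all genes. The 3 that fell made up 9.38% of the list, near the 6.02% of all genes. At an adjusted p under 0.05 without the fold cutoff, 17 of the 32 were lower and 2 higher, where 19.1% and 17.9% of all genes were. In Polysome 2 fell (6.25%), SEC11C (-0.93) and SRPRB, a subunit of the receptor of the signal recognition particle (-0.58), and the median was -0.31 against 0.03. No gene of the 4 lists was called for the difference between the fractions, by edgeR or by DESeq2. At an unadjusted p under 0.05 with no fold cutoff, 14 genes of the lists had a lower change in Polysome and none a higher one. The lists had 22 (matrix), 28 (collagen processing), 24 (adaptors) and 32 (ER) genes tested. Over all 14958 genes tested, 701 were lower and 388 higher by that rule.

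Set against Input, Polysome Ctrl held lower levels of 10 of 26 collagen processing genes (1 was higher) and 6 of 16 other matrix genes (2 higher), and Polysome siRNAG5 of 14 of 29 and 11 of 19 (none higher). For integrin adaptors, which are made on free ribosomes, 3 of 23 were lower and 7 higher in Ctrl and 4 lower and 6 higher in siRNAG5. For the ER list 6 of 32 were lower and 2 higher in Ctrl, and 10 lower and 2 higher in siRNAG5. The backgrounds are the shares over all genes given above, 18.8% lower and 20.8% higher in Ctrl and 21.2% and 23.9% in siRNAG5.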

How the data were processed

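RNA of 16 HEK293 libraries was sequenced by the study from polyadenylated RNA with a stranded kit. Per the submitters' processing notes reads were aligned with STAR 2.5.3a to GRCh38. The authors deposited raw counts as whole numbers, 1 file per library, made with QoRTs for Ensembl genes. Rows that name no gene (no feature 0.668 to 1.33%, ambiguous 4.14 to 7.41%, not unique 4.88 to 42.4% of the reads of a library) were left out of library sizes. Names, lengths and gene coordinates came from GENCODE v44 (GRCh38), an annotation on the authors' build, which named 57532 identifiers.

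The files were fitted in R 4.3.3 with edgeR 4.0.16 (TMM after filterByExpr, quasi-likelihood test, group as the only term, Benjamini-Hochberg over all genes tested). Each fit used the 8 libraries compared, except the difference between fractions, which used all 16. The study describes Input and Polysome RNA as taken from the same individual lysates, 4 per treatment. Fits with group as the only term treated these libraries as independent, and a replicate block was run as an alternative. A gene was called, or said to rise or fall, when its log2 FC passed 0.5 in size with an adjusted p under 0.05. CPM were scaled by TMM over the 16 libraries, and CPM per kb divided these by the merged exon length. Canonical transcripts gave the length and GC content for the offsets, by a spline of 5 degrees of freedom. The p-values measure the spread between the 4 libraries of a group, and the depth of 11145324 to 24511299 reads sets the counting error of low genes. The script was tested on simulated counts with known changes.

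The genes, lists and marker sets were chosen with earlier results of these data known, so none of them is independent support. Named were all genes called after silencing in either fraction (values per library for the 8 largest changes), the 3 most abundant of each family in Input Ctrl, the 5 largest called differences of Polysome against Input in Ctrl, the 3 smallest p for the difference between fractions, genes whose call rests on a library, and up to 3 called genes per list and fraction. Genes named besides these, such as partner chains and genes near a threshold, were chosen after their values were seen. Alternatives were RLE size factors, no filter, DESeq2 1.42.0 without shrinkage, the unadjusted p, no fold cutoff, a replicate block, length and GC offsets, both together, all 16 libraries in 1 fit, 1 surrogate variable (sva 3.50.0) and libraries left out. The values of 1 gene are not reported here, though the counts include it. Figures were drawn with matplotlib 3.10.9.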

Additional observations from a re-analysis of the deposited data

Results flagged for a closer look

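Among 108 groups of 4 libraries examined for the genes named, 4 held a library far from the others, and chance alone flags about 1 group in 20. COL1A1 in Input siRNAG5 1 stood at 8.65 CPM, above 6.51 to 6.70 CPM in the other libraries of its group. ITGA5 in Input siRNAG5 3 stood at 12.5 CPM, below 14.4 to 14.7 CPM. In Polysome siRNAG5 4, ITGA2B stood at 3.68 CPM, above 2.14 to 2.30 CPM, and ITGA7 at 0.368 CPM, below 0.767 to 0.846 CPM. COL2A1 was marked because the siRNAG5 libraries lay all above Ctrl in Input and all below it in Polysome, and the difference of the changes, -1.34 on the log2 scale, did not pass the adjusted test (edgeR, adjusted p = 0.23).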

How the results depend on the processing

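Directions were compared across the alternatives for the calls after silencing in either fraction. They were also compared for the 5 largest called differences of Polysome against Input in Ctrl. The 3 smallest p for the difference between fractions were the last. None of these changes reversed its direction, and the other genes named were not part of this comparison. Of the alternatives of these single genes 562 stayed on the same side of the threshold, 63 lost a call and 12 gained one. Below, 2 percentages in brackets give the share of these genes and then that of all genes tested. In Input the count called lower went from 0 to 1 with no fold cutoff (2.38 and 19.1%) and with no filter (1.30 and 3.31%). It was also 1 with length and GC offsets (2.38 and 7.78%, and with the replicate block 2.38 and 7.68%). Without Input Ctrl 3 and 4 it was 1 too (2.27 and 6.64%). The count called higher went from 21 to 12 with the offsets (28.6 and 7.84%, and with the replicate block 28.6 and 7.66%). In Polysome the count lower went from 0 to 3 with the unadjusted p (7.14 and 9.31%), no filter (3.75 and 3.44%) or 1 surrogate variable (7.14 and 9.88%). It was 1 with DESeq2 (2.38 and 7.64%), 4 with offsets (9.52 and 7.13%) and 5 with offsets and the replicate block (11.9 and 7.78%). All 16 libraries gave 2 (4.55 and 10.2%), as did leaving out Polysome Ctrl 1, siRNAG5 1 and siRNAG5 4 (4.55 and 12.1%). With each library left out it was 0 to 1 (at most 2.33%, against 0.768 to 5.72% of all genes). The count higher went from 3 to 7 with the unadjusted p or without those 3 libraries, 1 with the replicate block, 5 with all 16, 6 with the surrogate variable and 0 to 3 with each library left out. For the difference between fractions 9 were lower with the unadjusted p, 2 with no filter, with DESeq2 or without the 3 Polysome libraries, and 5 with the surrogate variable, and 1 was higher without the 3 libraries. For Polysome against Input in Ctrl, 22 were lower with offsets (56.4 and 18.6%, and with the block 56.4 and 19.2%). Without Input Ctrl 3 and 4 it was 8 (18.6%, against 14.7% of all genes). The count higher was 3 with no filter, 1 with all 16, 1 without the 3 libraries, 2 without Input Ctrl 3 and 4 and 0 to 1 with each library left out. In siRNAG5 the count higher was 2 with the unadjusted p, no filter, the replicate block or the surrogate variable, 0 with offsets, with or without the block, 3 without the 3 libraries and 1 to 2 with each library left out. The cause of these shifts was not tested.

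The replicate numbers were not shown to pair the libraries: same-numbered deviations correlated between -0.044 and 0.072 in Input, -0.607 and 0.545 in Polysome, -0.085 and 0.222 between fractions in Ctrl and -0.226 and 0.227 in siRNAG5. The numbers are those of the labels, and 0 to 2 of 4 samples correlated best with their own number. With the replicate block, all 21 Input calls and 1 of the 3 Polysome calls (COL9A2) held. For Polysome against Input all 13 calls in Ctrl and all 22 in siRNAG5 held with it. Over all genes, Polysome calls (577 lower, 569 higher) numbered 1343 and 1599 with the unadjusted p, 1101 and 840 with DESeq2, 1028 and 840 with offsets, 1520 and 1077 with all 16 libraries, 1424 and 1576 with the surrogate variable, 941 and 825 with no filter, 1788 and 1327 without the 3 libraries and 113 to 836 and 76 to 687 with each library left out. Input calls (851 and 1479) numbered 2695 and 2535 with no fold cutoff and 805 and 990 with all 16. With offsets the Input calls split into 1100 lower and 1108 higher. For the difference between fractions, with no call in either direction, 29 were lower and 28 higher with no filter, 11 and 18 with DESeq2, 352 and 110 with the surrogate variable, 659 and 106 without the 3 Polysome libraries, 9 and 0 without Input Ctrl 3 and 4 and 2 and 1 with offsets. Depth left 39 of the 83 genes too low to be tested in either fraction, at no more than 22 reads in any library.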
